A study of Mus musculus with 6 samples.

Results

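Expression of the 4 Id genes (Id1, Id2, Id3 and Id4) and of 6 genes of bone morphogenetic protein (BMP) signalling (Bmp4, Bmpr1a, Bmpr1b, Bmpr2, Smad1 and Smad6) was compared between Ts1Cje and disomic neurospheres. These genes were taken as a list of names, and every probe set of the array that the platform annotation gives to 1 of these names alone was used. The 10 genes, out of 18193 named on the array, had 25 probe sets, out of 34945 probe sets with a single symbol and 45037 probe sets in all. Affymetrix Mouse Genome 430 2.0 arrays were hybridised with RNA from 3 Ts1Cje and 3 disomic cultures. Ts1Cje is a mouse model of Down syndrome on a C57BL/6 background that carries the distal end of chromosome 16 in 3 copies, and the controls were disomic C57BL/6 littermates. All mice were female and 84 days old. Neural stem and progenitor cells of the subventricular zone, which lines the outer wall of the lateral ventricles, were grown for 7 days as neurospheres, which are floating clusters that hold progenitors at mixed stages, and their RNA was labelled in a two-cycle protocol. The labels call the cultures biological replicates.

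BMP ligands bind a pair of type I and type II serine/threonine kinase receptors on the cell surface, and the type I receptor then phosphorylates Smad1, Smad5 and Smad9, which enter the nucleus with Smad4. The Id genes are among the best known direct targets of these Smads. Id proteins have a helix-loop-helix domain but no basic region, so they pair with E proteins such as Tcf3, Tcf4 and Tcf12 without binding DNA and keep them from pairing with proneural factors. In the adult subventricular zone BMP signalling is known to favour astrocytes and stem cell quiescence over neurogenesis, and the antagonist Noggin is known to oppose it. None of the 10 genes lies in the segment carried in 3 copies. The reference annotation places Id1 on chromosome 2, Id2 on 12, Id3 on 4, Id4 on 13, Bmp4 and Bmpr1a on 14, Bmpr1b on 3, Bmpr2 on 1, Smad1 on 8 and Smad6 on 9. In Ts1Cje the extra segment is translocated to the distal end of chromosome 12, and the study cites a report of a deletion on that chromosome. The position of Id2 on it is given below.

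The windows before the start of 3 Id genes are shown because activated Smads are known to bind Id promoters. The reference held no window for Id1, and sites farther than 250 bases before a start are not shown. Each is the 250 bases before the annotated start, from RefSeq on GRCm38.p6, written 5′ to 3′ along the strand of the gene: chr12:25096093-25096342 on the minus strand for Id2, chr4:136143572-136143821 on the plus strand for Id3 and chr13:48260866-48261115 on the plus strand for Id4. Capitals mark the GC-rich box GGCGCC and the core of the Smad-binding element, GTCT or its reverse complement AGAC.
Id2: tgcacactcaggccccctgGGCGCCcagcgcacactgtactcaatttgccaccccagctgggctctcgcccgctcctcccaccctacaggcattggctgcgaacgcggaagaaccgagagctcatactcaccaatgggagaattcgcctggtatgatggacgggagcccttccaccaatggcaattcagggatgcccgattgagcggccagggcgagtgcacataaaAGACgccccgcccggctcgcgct
Id3: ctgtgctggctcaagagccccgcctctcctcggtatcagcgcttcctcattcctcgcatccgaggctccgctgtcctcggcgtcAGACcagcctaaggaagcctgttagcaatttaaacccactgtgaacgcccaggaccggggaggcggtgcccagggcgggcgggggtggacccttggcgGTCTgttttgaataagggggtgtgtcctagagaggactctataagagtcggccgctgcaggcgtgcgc
Id4: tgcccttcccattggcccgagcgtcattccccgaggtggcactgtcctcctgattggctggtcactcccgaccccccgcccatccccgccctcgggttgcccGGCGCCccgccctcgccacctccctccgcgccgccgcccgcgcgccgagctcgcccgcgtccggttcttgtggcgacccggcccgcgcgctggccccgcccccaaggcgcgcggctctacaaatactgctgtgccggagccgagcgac

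The Id2 window held 1 GGCGCC, 231 bases before the start, and 1 copy of the GTCT core. The Id4 window held 1 GGCGCC, 148 bases before the start, and no GTCT core. In the Id3 window there was no GGCGCC, and the GTCT core occurred 2 times. GGCGCC reads the same on both strands and does not overlap the GTCT core. It was found in 9.59% of the 32851 windows of this length before gene starts in the reference, and the GTCT core, on either strand, in 82.9% of them. Of the 9 listed genes with a window, 4 held GGCGCC (Id2, Id4, Bmpr1a and Bmpr2) and 5 held the GTCT core. Counted by window, as in the reference, 4 of 11 held GGCGCC and 7 of 11 the GTCT core, since Bmpr1b has several windows. The windows with GGCGCC had a GC content of 62.8% to 78.8%, and the reference windows were not matched for it. These are matches of letters and were not measured as binding.

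Values are log2 intensities as the authors summarised them with gcRMA, M is the mean of the Ts1Cje arrays minus the mean of the disomic arrays, and A is the mean over all 6 arrays. A probe set with A above 5 was taken as expressed, and a moderated t above 4 or below -4 as called, both thresholds of the study. Of the 16371 expressed probe sets, 1.78% were called in either direction, 6.18% had an unadjusted p below 0.05, and after Benjamini-Hochberg adjustment 0.00222% of all 45037 probe sets passed 0.05 with limma, which is 1 probe set. The genotypes separated as labelled: 79 of the 80 expressed probe sets of the genes in the trisomic segment had M above 0, with a median M of 0.54. Correlations between arrays lay between 0.991 and 0.997. Precision is limited by the small number of arrays: with 3 in each genotype, the smallest two-sided p of an exact permutation test is 0.1.

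Of the 25 probe sets, 16 were expressed, for 8 of the 10 genes, and 0 of them were called in either direction. None of the 16 had an unadjusted p below 0.05 in limma, the smallest being 0.0617, and each had an adjusted p of 1. M was above 0 for 13 and below 0 for 3 of the 16, with a median M of 0.19, against 0.01 over all expressed probe sets, of which 51.6% were above 0. Probe sets of 1 gene read the same RNA on the same arrays and are not independent, so these counts describe the list and carry no test. They include Smad1 1416081_at, whose mean was above 5 in Ts1Cje (5.46) but not in disomic neurospheres (4.93). With the expression threshold at 6 the median M was 0.17. In bulk cultures fewer cells of a type and less RNA per cell cannot be told apart. The plot of differences with their intervals shows that the Id genes had the widest intervals on the brightest probe sets, and the receptors and Smad1 narrow ones close to 0.

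**Figure D1:**
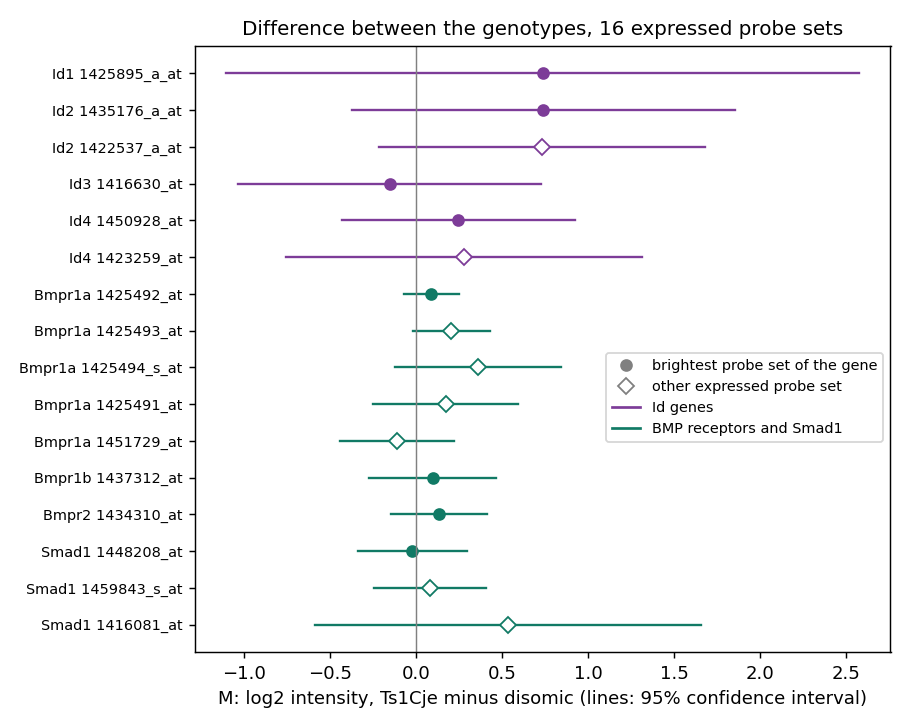
M (log2 intensity, Ts1Cje minus disomic, horizontal axis) for the 16 expressed probe sets, with filled circles for the brightest probe set of a gene, open diamonds for its other probe sets and lines for the 95% confidence interval. All 16 intervals include 0; the brightest probe sets of Id1 and Id2 both have M of 0.74, and that of Smad1 has M of -0.02.

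Among the Id genes, Id1 and Id2 had the largest M, 0.74 each on the brightest probe set, and neither was called. Id2 is expressed in neural progenitors and in many other dividing cells. Its brightest probe set, 1435176_a_at, read 11.96, 11.58 and 12.85 in Ts1Cje replicates 1, 2 and 3, against 11.69, 11.49 and 10.99 in the disomic replicates. Ts1Cje replicate 3 was the highest array and disomic replicate 3 the lowest, and the groups overlapped because Ts1Cje replicate 2 lay below disomic replicate 1. The means were 12.13 ± 0.65 in Ts1Cje and 11.39 ± 0.36 in disomic neurospheres (SD, n = 3 each). M was 0.74 with a standard error of 0.41, which is 1.67-fold with a 95% interval of 0.773 to 3.62, and the moderated t of 1.80 did not reach 4 (limma, unadjusted p = 0.141). The second expressed Id2 probe set, 1422537_a_at, read 6.45, 6.68 and 7.46 in Ts1Cje, against 6.45, 6.19 and 5.75 in disomic neurospheres. It ordered the arrays at the ends in the same way, with Ts1Cje replicate 3 highest and disomic replicate 3 lowest, and its M was 0.73 with a standard error of 0.35 (moderated t of 2.08). The groups only touched on it, since the lowest Ts1Cje and the highest disomic array were tied at 6.45. The third, 1453596_at, was not expressed: it read 2.31 on 5 arrays and 3.17 on Ts1Cje replicate 3.

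Id1, an Id gene known to mark adult neural stem cells with high self-renewal, was measured by 1 probe set, 1425895_a_at, with a wider spread between arrays. The probe set read 5.49, 5.67 and 7.58 in Ts1Cje replicates 1, 2 and 3, against 5.97, 5.23 and 5.33 in the disomic replicates. Only Ts1Cje replicate 3 stood above the disomic arrays, and Ts1Cje replicates 1 and 2 lay within their range. The means were 6.25 ± 1.16 in Ts1Cje and 5.51 ± 0.40 in disomic neurospheres (SD, n = 3 each), with M of 0.74 and a standard error of 0.68. The 95% interval of M ran from -1.10 to 2.57, or from 0.467-fold to 5.95-fold, and so included values of either sign (limma, moderated t of 1.08, unadjusted p = 0.336).

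Id3, which overlaps with Id1 in function in the developing brain, was the Id gene with M below 0. Its probe set 1416630_at read 6.72, 7.20 and 7.87 in Ts1Cje replicates 1, 2 and 3, against 7.52, 7.29 and 7.44 in the disomic replicates. The Ts1Cje arrays lay on both sides of the disomic arrays, which differed little among themselves. The means were 7.26 ± 0.58 in Ts1Cje and 7.42 ± 0.12 in disomic neurospheres (SD, n = 3 each), and M was -0.15 with a 95% interval of -1.03 to 0.73 (limma, moderated t of -0.47, unadjusted p = 0.663).

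Id4, which is known to hold adult hippocampal neural stem cells in quiescence, had a small M on both expressed probe sets. The brightest, 1450928_at, read 9.12, 9.22 and 9.56 in Ts1Cje, against 8.61, 9.29 and 9.27 in disomic neurospheres, and 1423259_at read 6.90, 6.95 and 7.59 in Ts1Cje, against 6.22, 7.04 and 7.32 in disomic neurospheres. On both, Ts1Cje replicate 3 was the highest and disomic replicate 1 the lowest array, and the rest overlapped. M was 0.25 with a 95% interval of -0.43 to 0.92 on 1450928_at (limma, moderated t of 0.98, unadjusted p = 0.378) and 0.28 on 1423259_at. The third probe set, 1423260_at, was not expressed and read 2.24 on 5 arrays and 2.25 on Ts1Cje replicate 3.

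**Figure D2:**
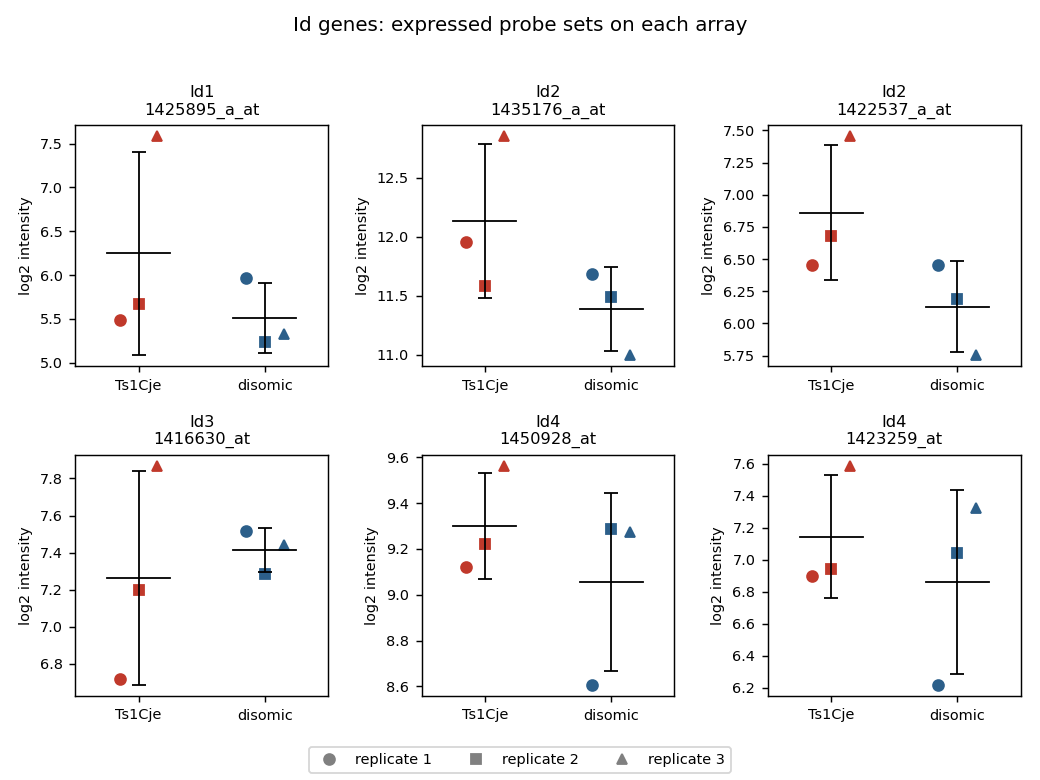
Log2 intensity (vertical axis, its own scale in each panel) of the 6 expressed Id probe sets on the 3 Ts1Cje and 3 disomic arrays, with marker shapes for the replicate number, a horizontal line for the mean and bars for 1 SD. In all 6 panels the triangle of Ts1Cje replicate 3 is the highest point, from 7.46 for Id2 1422537_a_at to 12.85 for Id2 1435176_a_at. On Id2 1422537_a_at the groups only touch, at 6.45 for replicate 1 of both genotypes, and in the other panels they overlap.

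Ts1Cje replicate 3 was the highest array for all 8 Id probe sets, expressed or not, and for 5 of the 10 expressed probe sets of the receptors and Smad1. Over all expressed probe sets it was the highest for 21.1%. Without it, M on the brightest probe set was 0.07 for Id1, 0.38 for Id2, -0.46 for Id3 and 0.12 for Id4. Over the leaving out of each array in turn, M of Id2 lay between 0.38 and 1.02, that of Id1 between 0.07 and 1.12, that of Id4 between 0.02 and 0.36 and that of Id3 between -0.46 and 0.12. Id4 came closest to 0 without disomic replicate 1, and Id3 had M above 0 without Ts1Cje replicate 1. The Id genes shared the high value on 1 array: across the 6 arrays Id1 and Id2 had a Pearson's r of 0.887 (exact permutation p = 0.0778, adjusted over 6 pairs 0.392) and a Spearman's rho of 0.771 (exact permutation p = 0.103, adjusted 0.617). Without Ts1Cje replicate 3 and disomic replicate 1, which lay farthest from the median of Id1, r was 0.440, so the relation rested on those arrays. The other 5 pairs of Id genes had r between 0.225 and 0.698 and rho between -0.0857 and 0.543 (exact permutation p of r from 0.131 to 0.603, adjusted 0.392 to 0.603), and each of them had r below 0 once the 2 arrays farthest from the median were left out.

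**Figure D3:**
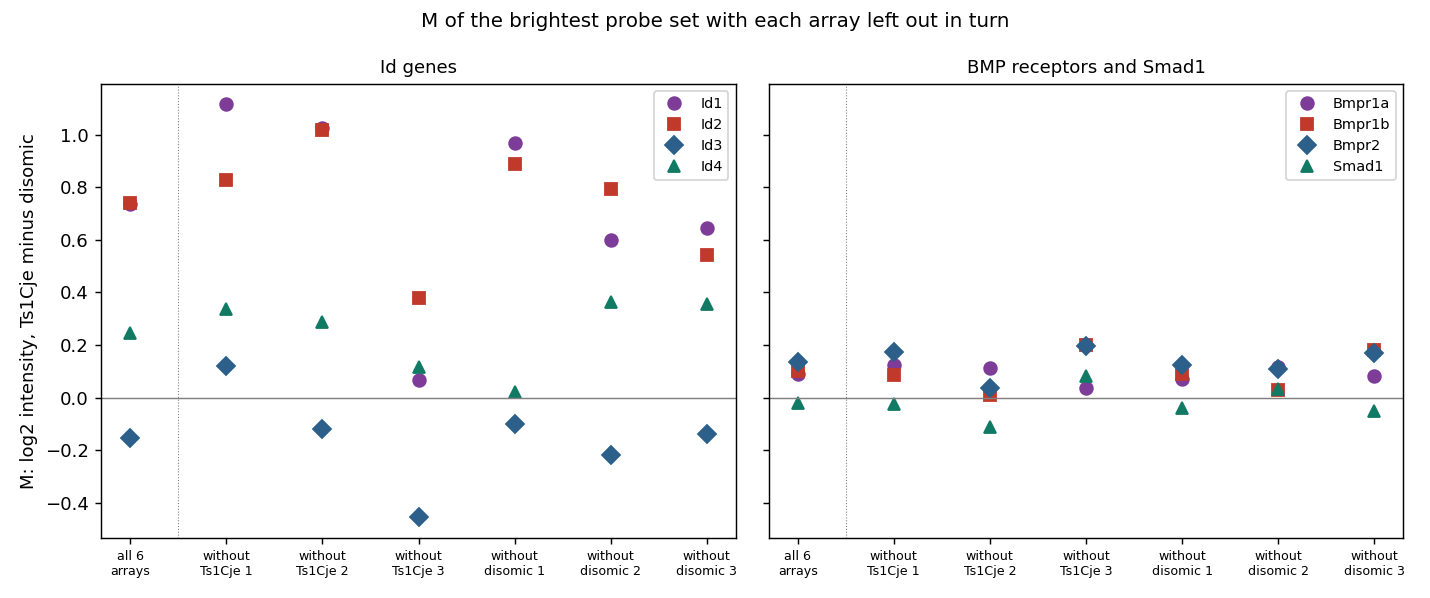
M of the brightest probe set of each expressed gene (vertical axis, log2 intensity, Ts1Cje minus disomic) with all 6 arrays and with each array left out in turn (horizontal axis), for the Id genes on the left and the receptors and Smad1 on the right. Without Ts1Cje replicate 3 Id1 drops to 0.07, Id2 to 0.38 and Id3 to -0.46, while the receptors and Smad1 stay between -0.11 and 0.20 throughout.

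Some measures of the arrays differed between the genotypes too. The 3′ minus 5′ difference of the actin control, a measure of how far labelled RNA reaches from its 3′ end, was 1.94, 1.87 and 2.26 in Ts1Cje, against 1.53, 1.83 and 1.66 in disomic neurospheres, with Ts1Cje replicate 3 highest and no overlap. The mean 18S control read 11.97, 12.36 and 12.33 in Ts1Cje, against 10.24, 11.32 and 11.74 in disomic neurospheres, again without overlap. For Gapdh the 3′ minus 5′ difference was 2.29 to 2.44 in Ts1Cje and 2.09 to 2.28 in disomic neurospheres. Their part in the Id values was not tested.

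Marker lists of cell types were read on the same arrays. None of the markers of microglia (0 of 5), ependymal cells (0 of 4) or endothelial cells (0 of 6) was expressed, and Aif1, Ptprc and Pecam1 read 2.23 on every array. The ependymal markers summed to 10.18 to 11.36 log2 units in Ts1Cje, with Ts1Cje replicate 3 highest, and 10.05 to 10.34 in disomic neurospheres, all dim. Markers of transit-amplifying progenitors (2 of 4 on the array), neuroblasts and neurons (2 of 6), oligodendrocytes (3 of 5) and pericytes and smooth muscle (2 of 5) were expressed in part, and 0 of them were called. For neuroblasts and neurons these were Cd24a and Ncam1, while Dcx, Tubb3, Stmn2 and Rbfox3 had A of 2.23, 2.47, 2.23 and 2.24. For pericytes and smooth muscle they were Acta2 and Cspg4, while Pdgfrb, Rgs5 and Tagln had A of 2.24, 2.68 and 2.24. Such partial lists do not show that these cell types were present. Of 9 stem cell and astrocyte markers 7 were expressed, among them Sox2, Nes and Fabp7, which are defining genes of neural stem and progenitor cells, while Gfap (A of 4.87) and S100b were not. The summed log2 level of these 9 markers was 90.7 to 95.5 in Ts1Cje, with Ts1Cje replicate 3 highest, and 92.1 to 93.2 in disomic neurospheres. Gfap, which read 2.37, 5.75 and 6.36 in Ts1Cje, against 5.42, 5.72 and 3.61 in disomic neurospheres, carried most of the spread among the Ts1Cje arrays: without it the sums were 88.4 to 89.1 in Ts1Cje, with Ts1Cje replicate 3 still highest, and 87.2 to 88.5 in disomic neurospheres. Aqp4, an astrocyte water channel, read 11.41, 11.77 and 11.95 in Ts1Cje, against 10.65, 11.26 and 10.78 in disomic neurospheres. The groups did not overlap, and M was 0.81 with a moderated t of 3.47, below 4 (limma, unadjusted p = 0.022). The other 8 markers of the list had M between -0.19 and 0.14 on the brightest probe set. Other probe sets of Slc1a3, a marker of this list, had M of 0.37 on 1426341_at, 0.26 on 1452031_at, 0.15 on 1443749_x_at and -0.07 on 1439072_at. Of these, only on 1452031_at did the groups not overlap, with the Ts1Cje arrays higher, the order of the same 5.53%. The part of these markers in the Id values was not tested.

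The ligand and the inhibitory Smad were at the floor in both genotypes. The probe sets for Bmp4, the BMP ligand most studied in the subventricular zone, and Smad6, an inhibitory Smad that BMP signalling itself induces, read 2.23 on all 6 arrays, the lowest value on these arrays. Each gene has 1 probe set here, and 11179 probe sets of the array were at this value on all arrays, so no difference could be measured for either gene.

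The type I receptor Bmpr1a had the smallest standard error among the 16 expressed probe sets and a small M. Its brightest probe set, 1425492_at, read 10.79, 10.81 and 10.97 in Ts1Cje, against 10.73, 10.82 and 10.75 in disomic neurospheres. M was 0.09 with a standard error of 0.06 and a 95% interval of -0.07 to 0.25 (limma, moderated t of 1.51, unadjusted p = 0.199), and the groups overlapped. Another probe set, 1425493_at, read 8.51, 8.53 and 8.64 in Ts1Cje, against 8.28, 8.50 and 8.27 in disomic neurospheres. It was the only one of the 16 expressed probe sets on which every Ts1Cje array lay above every disomic array, an order that 5.53% of all expressed probe sets showed. The gap between the lowest Ts1Cje and the highest disomic array was small, M was 0.21 with a 95% interval of -0.02 to 0.43, and the moderated t was 2.50 (limma, unadjusted p = 0.0617). No expressed probe set of the list had every Ts1Cje array below every disomic array, against 5.21% of all. Leaving out disomic replicate 2, the disomic array closest to Ts1Cje on 1425493_at, gave M of 0.28 and a moderated t of 5.85, which is past 4 (limma, adjusted p = 1).

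The other Bmpr1a probe sets did not all point one way. M was 0.36 on 1425494_s_at, which read 8.20, 8.12 and 8.64 in Ts1Cje and 7.81, 8.14 and 7.93 in disomic neurospheres, and 0.17 on 1425491_at. On 1451729_at M was -0.11, since disomic replicate 2 read 6.12 and the other 5 arrays between 5.72 and 5.78. The sixth, 1445413_at, was at 2.23 on all 6 arrays. A name ending in s_at marks probes that can match more than 1 transcript, so 1425494_s_at may hold signal from other sequences.

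Bmpr1b is the other type I receptor of the list. On 1437312_at it read 9.79, 9.94 and 9.56 in Ts1Cje, against 9.64, 9.52 and 9.83 in disomic neurospheres. The arrays of the genotypes were interleaved, with M of 0.10 and a 95% interval of -0.27 to 0.47 (limma, moderated t of 0.72, unadjusted p = 0.507). Its dim probe sets had M of -0.09 on 1422872_at and 0.19 on 1443720_s_at.

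Bmpr2, the type II receptor that binds BMPs and activates the type I receptors, read 12.40, 12.67 and 12.35 in Ts1Cje on 1434310_at, against 12.31, 12.29 and 12.41 in disomic neurospheres. Ts1Cje replicate 2 alone stood above the disomic arrays, and the 95% interval of M ran from -0.14 to 0.41 (limma, moderated t of 1.31, unadjusted p = 0.254). The largest M of all 25 probe sets was on a Bmpr2 probe set that did not pass the filter on dim signal: 1419616_at read 3.54, 3.94 and 5.16 in Ts1Cje, against 3.18, 3.54 and 3.43 in disomic neurospheres, with M of 0.83 and a 95% interval of -0.46 to 2.12. Here too Ts1Cje replicate 3 was the highest array. The third Bmpr2 probe set, 1441652_at, had M of -0.03.

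Smad1, which carries the signal from the receptors to the nucleus, had M near 0 on its brightest probe set and a larger one on its dimmest. On 1448208_at it read 10.87, 11.04 and 10.65 in Ts1Cje, against 10.83, 10.97 and 10.81 in disomic neurospheres, with M of -0.02 and a 95% interval of -0.34 to 0.30 (limma, moderated t of -0.17, unadjusted p = 0.876). On 1459843_s_at M was 0.08. On 1416081_at it read 5.30, 5.52 and 5.58 in Ts1Cje, against 4.11, 5.16 and 5.52 in disomic neurospheres, and M of 0.54 came with a standard error of 0.42. Disomic replicate 1 was the lowest array on that probe set, and the groups overlapped. Its mean was 5.46 in Ts1Cje and 4.93 in disomic neurospheres, so it passed the threshold of 5 only through the Ts1Cje arrays. The counts and medians that follow include it. In all, 8 of the 10 expressed probe sets of the receptors and Smad1 had M above 0, with a median M of 0.12, and 5 of the 6 expressed Id probe sets, with a median M of 0.51. Without Ts1Cje replicate 3 the median of the 6 Id probe sets was 0.09 and that of the 10 receptor and Smad1 probe sets 0.16, and without Ts1Cje replicate 2 the medians were 0.60 and 0.07, so their order rested on Ts1Cje replicate 3.

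**Figure D4:**
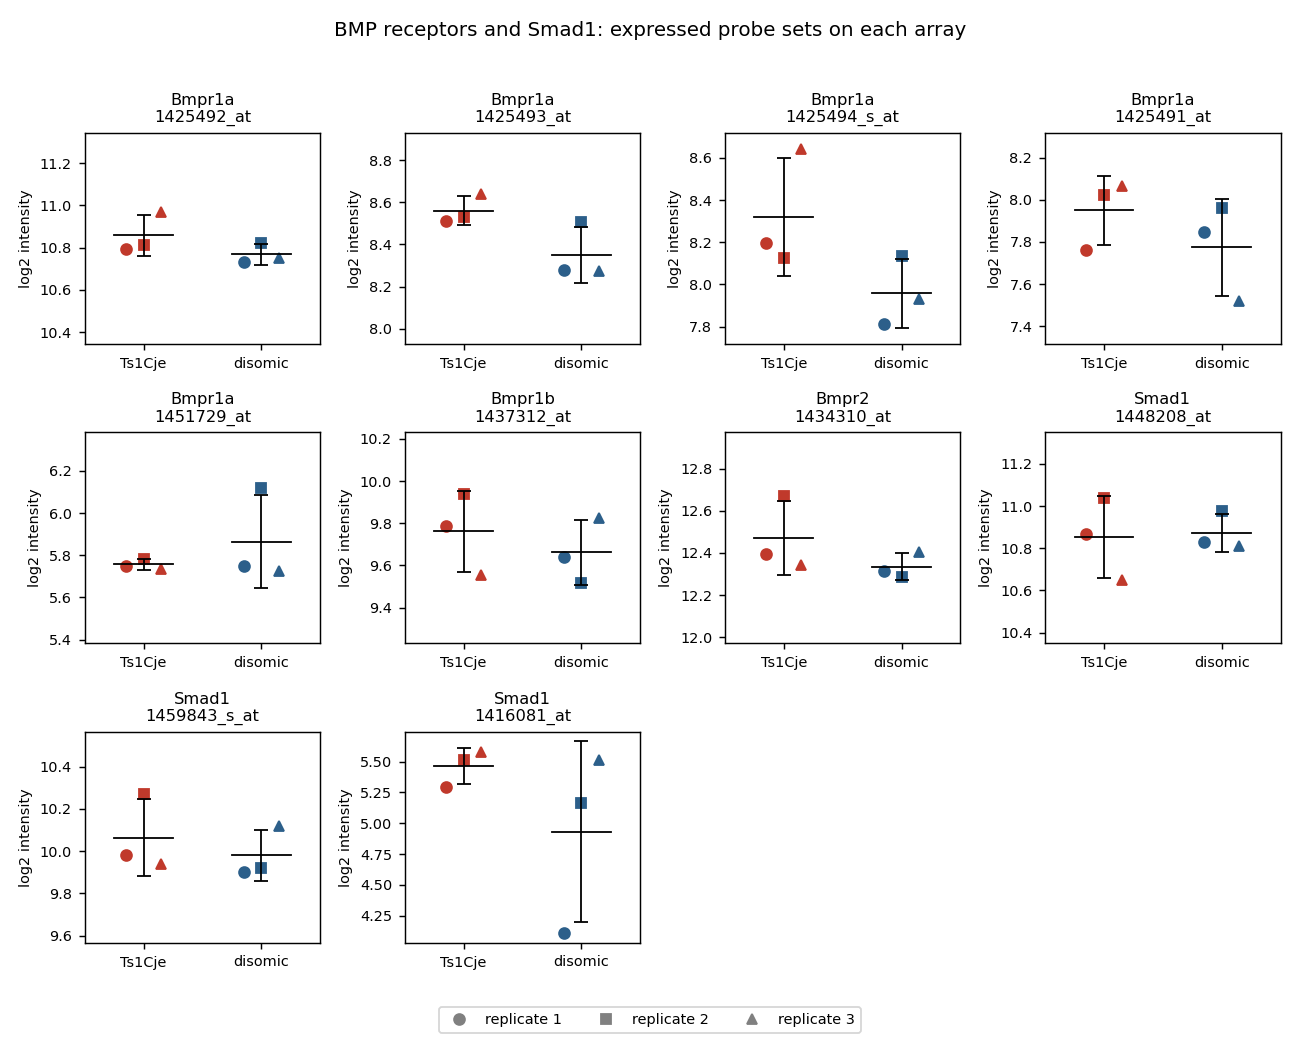
Log2 intensity (vertical axis, a scale of its own in each panel) of the 10 expressed probe sets of Bmpr1a, Bmpr1b, Bmpr2 and Smad1 on the 3 Ts1Cje and 3 disomic arrays, with marker shapes for the replicate number, a horizontal line for the mean and bars for 1 SD. On Bmpr1a 1425493_at the 3 Ts1Cje points, 8.51 to 8.64, lie just above the 3 disomic points, 8.27 to 8.50, and in the other 9 panels the groups overlap.

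Around these genes, 61 further genes of the pathway and of the partners of Id proteins had a probe set on the array, and 29 of them were expressed. On the brightest probe set 0 of the 29 were called in either direction, 2 (6.90%) had an unadjusted p below 0.05, close to the 6.18% of all expressed probe sets, 16 had M above 0 and 13 below, and the median M was 0.04. Over all 64 expressed probe sets of these genes 0 were called and 5 had an unadjusted p below 0.05 in limma. Among the other ligands only Bmp7 of 9 on the array was expressed (M of -0.03), and among the extracellular antagonists and modulators 6 of 13 were, with Chrdl1, a secreted BMP antagonist related to chordin, at M of -0.34 and Twsg1 at -0.08. Nog, the gene of Noggin, read 2.23 on every array, as did Smad9; both are named after their values were seen. Of the 4 other Smads of the branch on the array 2 were expressed: Smad4, the common partner, had M of -0.21 with a moderated t of -1.49, and Smad5 had M of 0.07.

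On the brightest probe set, Rgmb and Usp9x had the largest moderated t in size of their lists. Over all expressed probe sets of the 29 genes the largest was -3.71, on Ppm1a 1451943_a_at, of the same list as Usp9x. There M was -0.31 (limma, unadjusted p = 0.0178), not called. Every Ts1Cje array lay below every disomic array on it, as for 5.21% of all expressed probe sets. The brightest Ppm1a probe set had M of 0.27. Ppm1a is named after its values were seen. Rgmb, a membrane-bound co-receptor for BMPs, read 6.50, 6.37 and 6.43 in Ts1Cje, against 6.20, 6.16 and 6.33 in disomic neurospheres on its brightest probe set, with M of 0.20 and a moderated t of 3.33 (limma, unadjusted p = 0.0258). Its other probe sets did not point one way, with M of 0.42 on 1433587_at and -0.49 on 1442811_at. Usp9x, a deubiquitinase that acts on Smad4, read 9.37, 9.39 and 9.32 in Ts1Cje, against 9.17, 8.96 and 9.22 in disomic neurospheres, with M of 0.24 and a moderated t of 2.94 (limma, unadjusted p = 0.0384). Its other expressed probe sets had M of 0.43 on 1428194_at, 0.19 on 1450039_at and 0.09 on 1420922_at. Of these, only 1428194_at had groups that did not overlap. Neither gene was called. On the brightest probe set of both, every Ts1Cje array lay above every disomic array. That order was shown by 2 of the 29 genes (6.90%) and by 5.53% of all expressed probe sets. Of the 64 expressed probe sets of the 29 genes, which are not independent, 6 showed it. The reverse order was shown by 5 of the 64, and by 5.21% of all. Fkbp1a, which binds and restrains type I receptors, had M of -0.11, the type I receptor Acvr1 had M of -0.29, and the only expressed gene of the other BMP targets, Hey1, had M of -0.11.

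The partners of Id proteins differed in sign. Tcf12, an E protein, read 13.13, 13.34 and 12.89 in Ts1Cje, against 13.48, 13.41 and 13.36 in disomic neurospheres, so that every Ts1Cje array was below every disomic array, as for 5.21% of all expressed probe sets. M was -0.29 with a moderated t of -2.28, not called (limma, unadjusted p = 0.0792), and its 5 expressed probe sets all had M below 0, down to -0.91. The largest moderated t in size was -3.46, on 1421908_a_at, with M of -0.57 (limma, unadjusted p = 0.0227), also not called. The groups did not overlap on 1421908_a_at and 1439619_at either, and overlapped on 1439209_at and 1446294_at. Hes5, a Notch effector whose product is a transcriptional repressor in neural stem cells, had M of 0.54 and a moderated t of 1.96 on its brightest probe set, with overlapping groups, and M of 1.20 and a moderated t of 2.65 on the other. On that other probe set every Ts1Cje array lay above every disomic array, as for 5.53% of all expressed probe sets. Olig1 and Olig2, named because they lie in the segment carried in 3 copies and after their values were seen, had M of 0.13 and -0.03. Ts1Cje replicate 3 was the highest array for 1 of these 29 genes on the brightest probe set, and for 6 of their 64 expressed probe sets (9.38%).

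**Figure D5:**
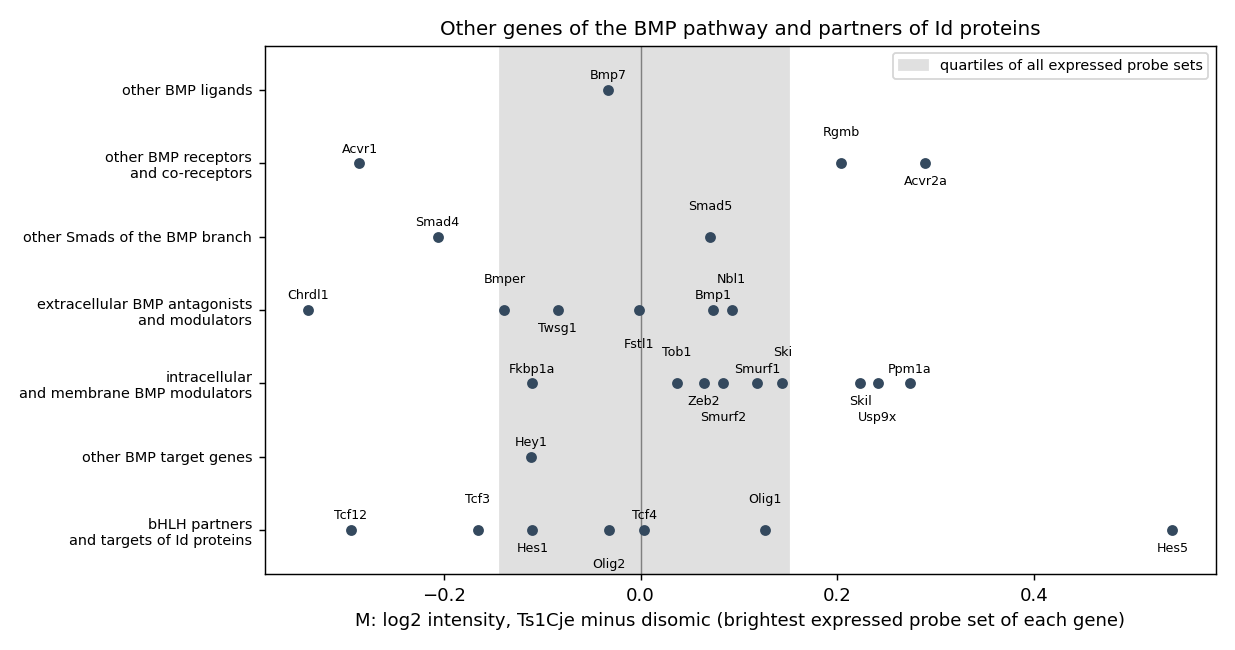
M (horizontal axis, log2 intensity, Ts1Cje minus disomic) of the brightest expressed probe set of each of 29 further genes, in rows by role, with the quartiles of all expressed probe sets shaded. The 29 genes lie from -0.34 (Chrdl1) to 0.54 (Hes5), 16 of them above 0.

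The genes whose pattern over the 6 arrays was most like that of each Id gene were taken from 14594 expressed probe sets with a single symbol. For Id1 these were Arsa, Dbp and Ccdc93, with Pearson's r of 0.999, 0.996 and 0.993. For Id2 they were Apip, Slc30a9 and Znhit1, at 0.998, 0.998 and 0.995. Sra1, Acd and Plod1 were most like Id3, at 0.992, 0.987 and 0.986, and Romo1, Zfp330 and Smim4 were most like Id4, at 0.993, 0.992 and 0.989. The 4 Id genes shared none of these 12 neighbours. They were picked as the highest values of r over 6 arrays and describe these arrays only.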

How the data were processed

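RNA from 3 Ts1Cje and 3 disomic neurosphere cultures was hybridised to 1 array each. The authors used gcRMA, which corrects background by the base composition of probes, normalizes between arrays and summarises each probe set, and deposited the result in log2 units. Its version is not given in the sources used here. All 6 columns were used and 0 were left out. The 64 control probe sets were kept out of the fit. Of the other 45037, 34945 have 1 symbol in the platform annotation, 932 several and 9160 none, and 34741 were matched to RefSeq (GRCm38.p6) by Entrez identifier. Array depth has no read count, so precision rests on the spread between arrays.

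A linear model with genotype as the only term was fitted to all 45037 probe sets with limma 3.58.1 in R 4.3.3 (lmFit, eBayes with a prior of 0.336 degrees of freedom, two-sided moderated t, Benjamini-Hochberg adjustment over all). Expressed meant a mean above 5, called a moderated t past 4, and a gene was represented by its brightest probe set. Intervals are at 95%. Correlations were computed with Python 3.11.15, pandas 2.3.3 and scipy 1.17.1, and figures drawn with matplotlib 3.10.9. The fit was tested on simulated data. Named were all listed genes, any called gene, the 2 genes of each pathway list with the largest moderated t in size, the 3 probe sets most like each Id gene and, as values only, marker genes. Nog, Smad9, Olig1, Olig2 and Ppm1a were named outside this rule. The genes and lists were chosen with earlier results of these data known. Other settings were a block for the replicate number, each array left out, cyclic loess or quantile normalization, array weights, a trended prior, a fit of expressed probe sets only, other expression thresholds and the mean over the probe sets of a gene. The group medians with an array left out and the marker sum without Gfap were added after seeing the data.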

Additional observations from a re-analysis of the deposited data

How the results depend on the processing

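Of 100 alternative values of M for the 8 expressed genes, the 96 on the brightest probe set all had a moderated t within 4 of 0, and the 4 that are means over probe sets have no t. In 4 of the 100 the sign turned: Id3 without Ts1Cje replicate 1, and Smad1 without Ts1Cje replicate 3, without disomic replicate 2 and as the mean over its expressed probe sets (M of 0.20). With each array left out in turn, M lay between -0.46 and 0.12 for Id3 and between -0.11 and 0.081 for Smad1. The count of expressed probe sets of the list with t above 4 lay between 0 and 1 (the 1 being Bmpr1a 1425493_at without disomic replicate 2), and that with t below -4 was 0 each time. The median M of the 16 probe sets lay between 0.11 and 0.28.

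The design text of the series names pairs of littermates without saying that a replicate number marks a pair, and deviations of same-numbered arrays correlated at -0.17, -0.03 and 0.13, with 1 of 6 arrays closest to its own number, so the numbers were not used as pairs. With the replicate number as a block, 0 expressed probe sets of the list had t above 4 and 0 below -4, while over all expressed probe sets 1081 were past 4, against 291 without the block. That count was 394 to 784 with 1 array left out and 112 in a fit of expressed probe sets only. The cause was not tested.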
